A study of Mus musculus with 9 samples.

Results

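The genes that carry a cell from G1 into S phase and copy its DNA were examined in Caki cells that carried an empty vector, YAP1 or an activated form of YAP1. The set held 39 genes, taken by symbol from a table of 58735 genes. Each of the 39 symbols matched 1 row, and all 39 passed the filter on low counts that left 15492 genes for testing. The genes comprise 4 origin licensing factors, 7 MCM genes, 5 genes of CDC45 and the GINS complex, 11 genes of the polymerases, primase, sliding clamp and clamp loader (the flap nuclease FEN1 included), 3 genes of nucleotide supply, 5 cyclin E and E2F genes, and 4 genes that restore chromatin and DNA methylation behind the fork.

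Caki is an established human line from a clear cell carcinoma of the kidney. All 9 libraries came from Caki cells given a retroviral vector and selected with G418, a drug that kills cells without the vector's resistance gene, so the MX controls share the vector and the selection. MX carried the empty vector, the YAP1 group carried the wild-type gene, and the YAP1-S127A group carried a form in which alanine replaces the serine that Hippo kinases phosphorylate, 3 libraries each. The labels give no time point, and do not state that replicates were independent cultures, so every p-value here measures the spread among these libraries, which could be technical. The labels name mouse as the organism, whereas the gene identifiers are human, and no human genome build is named in the sources used here.

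Before S phase, ORC, CDC6 and CDT1 load the MCM hexamer onto origins of replication. CDC45 and the GINS complex then turn the hexamer into a moving helicase, and polymerases with the PCNA clamp copy the opened strands. Many of these genes are transcribed by E2F factors once cyclin-dependent kinases have inactivated the retinoblastoma protein, and YAP1 with TEAD factors is known to act on cell cycle genes in several tissues.

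Library totals ran from 15789722 to 24811150 counts. The introduced gene followed the labels, with YAP1 at 108, 100.3 and 91.1 CPM (counts scaled to library size, with TMM factors) in MX, 1519, 1003 and 1137 in the YAP1 group and 741, 692 and 631 in the YAP1-S127A group. Reads from the introduced and the native gene cannot be separated in these counts. All YAP1-S127A libraries had less YAP1 RNA than all YAP1 libraries. Comparisons between the constructs therefore join the S127A change with a lower YAP1 level, and the 2 cannot be told apart. Of the kidney and epithelial markers, PAX8, CDH6, KRT8, KRT18 and VIM were present, PAX2 was at 0 in 8 of 9 libraries, and CA9 was under 1 CPM. Summed markers of endothelium, leukocytes and erythroid cells reached at most 1.89, 1.68 and 0.133 CPM, and a fibroblast list led by COL1A1 summed to 774 to 1308 CPM in MX, 1337 to 1689 in YAP1 and 2146 to 3953 in YAP1-S127A. Mitochondrial transcripts took 5.89, 6.60 and 1.896% of counts in MX, 3.50, 8.60 and 11.4% in YAP1, and 29.6, 7.40 and 21.2% in YAP1-S127A. Exact two-sided permutation tests of this share with n = 3 per group gave p = 0.4 (YAP1 and MX), 0.1 (YAP1-S127A and MX) and 0.3 (the 2 constructs), and 0.1 is the smallest p the design allows. MX replicate 1 had 25491 genes detected, against 21568 to 23156 in the other libraries. The part of the COL1A1-led list in the results was not tested.

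Few of the 39 genes passed the test in any comparison. Their mean log2 CPM was 4.91 ± 0.0722 (SD, n = 3) in MX, 5.02 ± 0.0405 in YAP1 and 4.88 ± 0.0700 in YAP1-S127A. By this mean the MX libraries overlapped both construct groups, and the YAP1-S127A libraries, at 4.80 to 4.93, lay below the YAP1 libraries, at 4.97 to 5.05. In YAP1 against MX, 2 genes rose (POLD1 and GINS1) and 0 fell, at an adjusted p under 0.05 in edgeR's quasi-likelihood test, beside 6.81% of all tested genes (3.23% higher and 3.58% lower). In YAP1-S127A against MX, 2 rose (POLD1 and E2F1) and 2 fell (RFC5 and E2F2), beside 18.4% of all tested genes (9.53% higher and 8.84% lower). Between YAP1-S127A and YAP1, edgeR called 0 of the 39, beside 1.97% of all tested genes (1.13% higher and 0.839% lower), and DESeq2 and limma-voom also called 0. At an unadjusted p under 0.05, 5 of the 39 were lower and 0 higher between the constructs (12.8%), against 12.3% of all tested genes (5.7% lower and 6.58% higher). The same threshold took 9 of the 39 in YAP1 against MX (23.1%, all tested genes 19.8%) and 10 in YAP1-S127A against MX (25.6%, all tested genes 31.3%). The shares of the 39 genes called against MX, 5.13% and 10.3%, were below those of all tested genes. Both comparisons against MX share the same 3 control libraries. With the mitochondrial share as a covariate, POLD1 was the 1 gene called with YAP1, and E2F1 (higher) and E2F2 (lower) were called with YAP1-S127A. Of all tested genes, 3.18% were then higher and 3.51% lower with YAP1, and 4.93% higher and 4.14% lower with YAP1-S127A. With YAP1-S127A reduced to replicate 2, its 1 library under 20% mitochondrial counts, POLD1 was called with YAP1 and E2F1 with YAP1-S127A. That fit takes the spread of the lone library from the other groups, so it gives no check on YAP1-S127A replicates. In bulk RNA, fewer cells in S phase and less of a transcript per cell cannot be told apart.

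**Figure D1:**
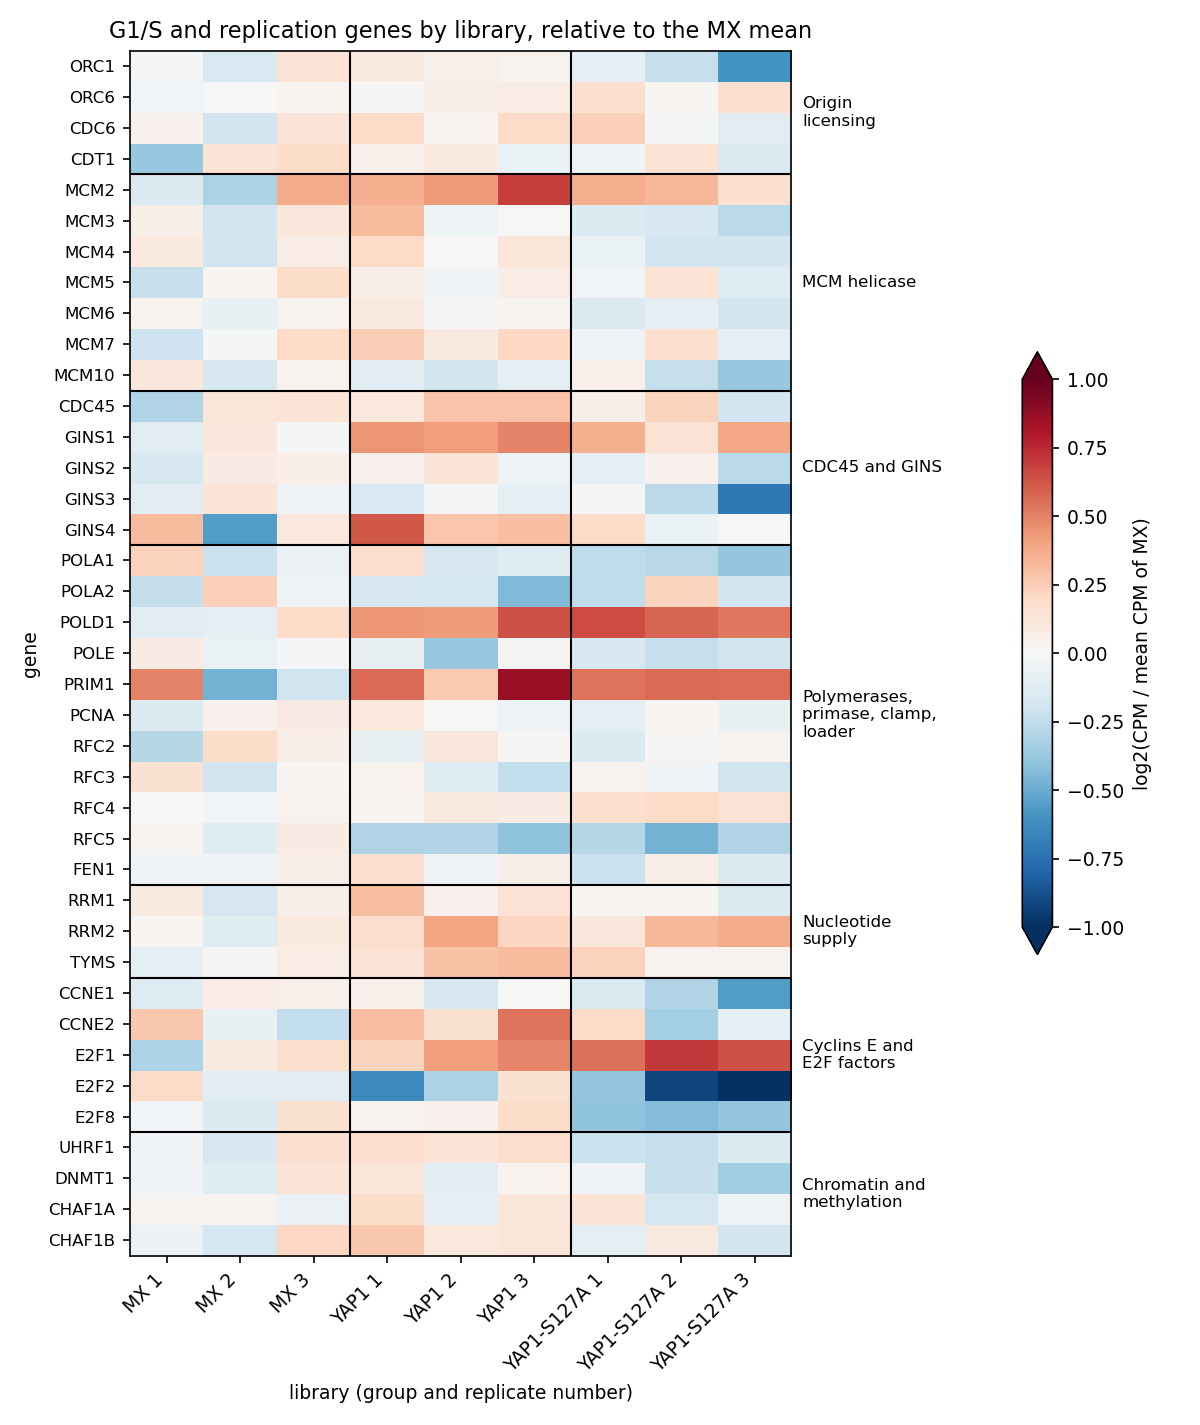
Heat map of the 39 genes (rows, by role) in 9 libraries (columns), coloured by the log2 of CPM over the mean CPM of the 3 MX libraries, with the colour scale ending at -1 and 1. Most cells are pale, and the strongest blue is at E2F2 in YAP1-S127A replicates 2 and 3, at 1.97 and 1.84 CPM against 3.45 to 4.24 in MX.

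POLD1, the catalytic subunit of DNA polymerase delta, which synthesises the lagging strand, was the 1 gene called against MX with both constructs (ENSG00000062822, chromosome 19, 50384204 to 50418016). It stood at 30.9, 31.4 and 38.3 CPM in MX, 45.3, 45.1 and 52.2 in YAP1, and 52.8, 50.3 and 48.4 in YAP1-S127A. All 6 libraries with a YAP1 construct lay above all 3 MX libraries, and the 2 construct groups overlapped. POLD1 rose by 0.50 on the log2 scale with YAP1 (SE 0.12, adjusted p = 0.0126 in edgeR) and by 0.59 with YAP1-S127A (SE 0.12, adjusted p = 0.00160). The difference between the constructs was 0.09, with a 95% interval of -0.16 to 0.33. The call with YAP1 was lost without YAP1 replicate 3 (0.43, adjusted p = 0.0974). The call with YAP1-S127A was lost when the mitochondrial share was a covariate (0.56, adjusted p = 0.0507). With replicate 2 alone, where the other groups supply the spread, the difference was 0.58 (0.0577).

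The other polymerase and primase genes differed little or were few in counts. POLA1, the catalytic subunit of the primase-coupled polymerase alpha, had 25.0, 18.4 and 20.4 CPM in MX, 23.9, 18.98 and 19.6 in YAP1 and 17.8, 17.6 and 16.2 in YAP1-S127A. All YAP1-S127A libraries lay below those of the other groups, with a log2 difference from MX of -0.31 that was not called (adjusted p = 0.144). PRIM1, the primase subunit that makes the RNA primers, had 5.67, 2.90 and 3.49 CPM in MX, 5.96, 4.82 and 7.32 in YAP1 and 5.87, 5.96 and 5.94 in YAP1-S127A. MX replicate 1 was close to the construct libraries and the other two MX libraries were lower. The PRIM1 differences, 0.57 and 0.54, were not called (adjusted p = 0.167 and 0.123), but without MX replicate 1 they were 0.91 and 0.87 at adjusted p = 0.0144 and 0.0106. PRIM1 had a mean of 105 counts and overlaps on the same strand NACA, with a mean of 8614, so reads may be shared between them. POLA2, the accessory subunit of polymerase alpha, and POLE, the catalytic subunit of the leading strand polymerase, ran from 10.6 to 17.0 and from 50.9 to 70.1 CPM, and neither was called. POLE in the YAP1-S127A libraries, at 56.4 to 59.3 CPM, lay below MX, at 63.3 to 70.1, and overlapped YAP1.

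Among the clamp and its loader, the RFC complex that places PCNA on DNA, 1 subunit fell. RFC5 (ENSG00000111445, chromosome 12, 118013588 to 118033130) stood at 33.0, 29.9 and 34.3 CPM in MX, 26.3, 26.5 and 24.5 in YAP1, and 26.6, 23.3 and 26.4 in YAP1-S127A. Every construct library was below every MX library. RFC5 had a mean of 564 counts and overlaps on the opposite strand WSB2, with a mean of 3498. The strand setting of the counting is not stated, so reads may be shared between them. RFC5 fell by 0.35 on the log2 scale with YAP1-S127A (SE 0.12, adjusted p = 0.0447 in edgeR), while with YAP1 the difference was -0.33 at 0.101. The call was close to the threshold: it was lost in 11 of 20 alternatives, among them those without MX replicates 1 and 3, YAP1 replicates 2 and 3, and each YAP1-S127A library, with adjusted p from 0.053 to 0.16. Its partners did not follow: RFC4 ran from 27.2 to 28.3 CPM in MX and from 30.6 to 31.7 in YAP1-S127A without overlap, RFC2 and RFC3 overlapped in all groups, and none of the 3 was called. RFC4, with a mean of 577 counts, likewise overlaps EIF4A2 on the opposite strand, with a mean of 2571. PCNA, the sliding clamp, was at 77.6, 88.1 and 90.3 CPM in MX, 91.7, 85.5 and 82.5 in YAP1 and 79.7, 86.5 and 81.2 in YAP1-S127A. These libraries overlapped throughout, and the log2 differences from MX were 0.02 (95% interval -0.21 to 0.25) and -0.05 (-0.28 to 0.18). FEN1, which removes the flaps between Okazaki fragments, ran from 56.3 to 73.0 CPM and was not called.

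Of CDC45 and the 4 GINS subunits, which complete the replicative helicase, GINS1 rose with YAP1 (ENSG00000101003, chromosome 20, 25407727 to 25452628). It stood at 13.7, 15.9 and 14.5 CPM in MX, 19.95, 19.6 and 20.7 in YAP1, and 18.8, 16.2 and 19.2 in YAP1-S127A. The YAP1 libraries lay above all others, and the YAP1-S127A libraries lay between the other groups. GINS1 rose by 0.45 on the log2 scale with YAP1 (SE 0.13, adjusted p = 0.0375 in edgeR), against 0.30 with YAP1-S127A (adjusted p = 0.118). The call was lost in 10 of 20 alternatives, among them those without MX replicate 1 or 3 (adjusted p = 0.0758 and 0.12) and without YAP1 replicate 1, 2 or 3 (0.085, 0.105 and 0.149). GINS4 had 16.9, 9.19 and 14.6 CPM in MX, 20.8, 16.5 and 16.7 in YAP1, and 15.5, 12.9 and 13.6 in YAP1-S127A. Its MX libraries spread widely and overlapped both other groups, and the log2 difference of 0.40 with YAP1 was not called (adjusted p = 0.222), though without MX replicate 1 it was 0.58 at 0.0444. GINS2, GINS3 and CDC45 were not called in any comparison, and CDC45 ran from 11.9 to 18.0 CPM.

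**Figure D2:**
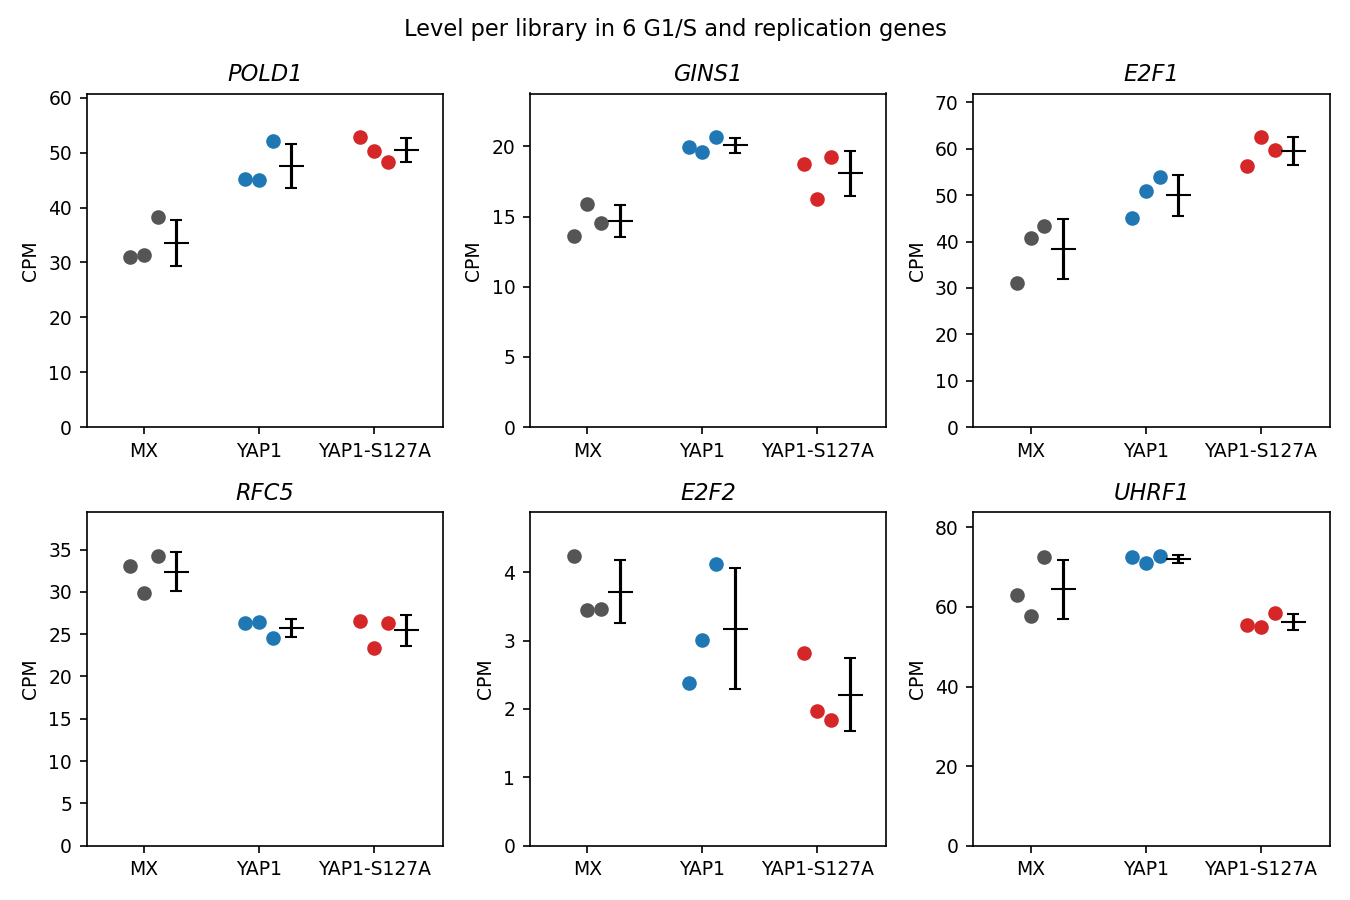
CPM (vertical axes from 0) of 6 of the genes in each library, by group, with points for libraries and bars for the mean and SD of 3. POLD1 is higher in all 6 construct libraries, at 45.1 to 52.8 CPM, than in MX at 30.9 to 38.3.

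Of the MCM genes, 6 encode the hexamer that unwinds DNA and MCM10 helps to activate it. By edgeR 0 of the 7 were called in any comparison. The unadjusted p was under 0.05 for MCM2 with YAP1 and for MCM3 and MCM4 between the constructs. MCM2 came closest, with 53.7, 47.6 and 76.8 CPM in MX, 76.2, 79.8 and 95.8 in YAP1, and 76.3, 74.7 and 66.5 in YAP1-S127A. MX replicate 3 reached the construct libraries, and the other two MX libraries lay below them all. The log2 difference with YAP1 was 0.50 (SE 0.15, adjusted p = 0.0525 in edgeR), just over the threshold. MCM2 was called with YAP1 by DESeq2 (0.50, adjusted p = 0.0316), with mitochondrial genes left out (0.0497) and with no filter on low counts (0.0048). Without MX replicate 3 the edgeR difference was 0.73 at 0.0043. MCM3 had 105, 88.5 and 109 CPM in MX, 126, 97.7 and 101 in YAP1 and 91.7, 90.4 and 83.4 in YAP1-S127A. MCM4 had 183, 150.2 and 181 CPM in MX, 196, 172 and 186 in YAP1 and 164, 150.1 and 150.3 in YAP1-S127A. For both genes the YAP1-S127A libraries lay below the YAP1 libraries and overlapped MX, with log2 differences between the constructs of -0.29 and -0.26 that were not called (adjusted p = 0.338 and 0.369). MCM6 in the YAP1-S127A libraries, at 53.1 to 56.6 CPM, lay below MX (57.2 to 61.8) and YAP1 (59.7 to 64.4). Its log2 differences from those groups, -0.14 and -0.18, were not called (adjusted p = 0.400 and 0.534 in edgeR). MCM7 had 158, 180.4 and 210.4 CPM in MX, 217, 195 and 212 in YAP1 and 178, 205 and 171 in YAP1-S127A, and its groups overlapped.

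Per kilobase of gene length, the hexamer subunits were unequal although the complex holds them in equal number. MCM7 was at 41.7 ± 5.98 CPM per kb (SD, n = 3) in MX and MCM5 at 11.1 ± 1.60, with MCM3 at 27.6 ± 2.99, MCM4 at 24.6 ± 2.64, MCM6 at 14.6 ± 0.641 and MCM2 at 12.1 ± 3.14. MCM7 was the highest of the 6 in every library, followed by MCM3 and MCM4 in every library. How the deposited length was derived is not stated, so these levels compare genes only roughly. Over all 39 genes and 9 libraries, PCNA at 57.6 and MCM7 at 43.8 CPM per kb had the highest means, and E2F2 at 0.56 and CCNE2 at 0.69 the lowest.

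**Figure D3:**
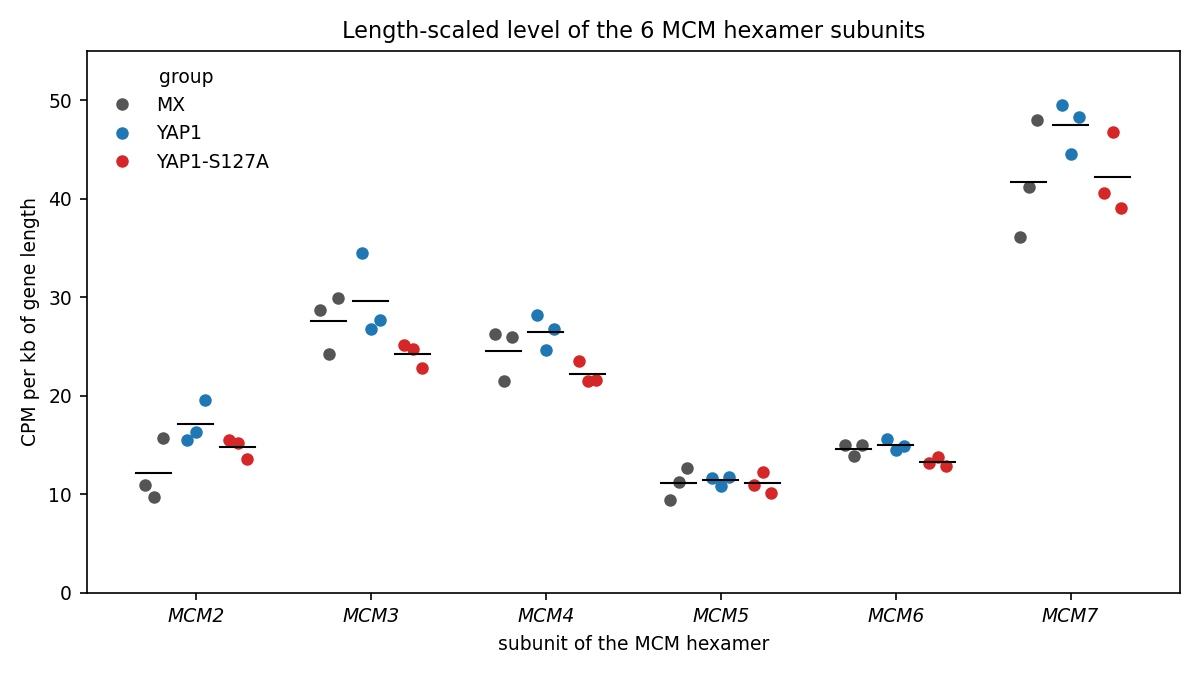
CPM per kb of deposited gene length (vertical axis from 0) for the 6 subunits of the MCM hexamer, with points for libraries coloured by group and lines for group means. MCM7 lies between 36.1 and 49.5 in all 9 libraries, above every other subunit.

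Of the 4 licensing factors, edgeR called 0 in any comparison, and 1 had an unadjusted p under 0.05, between the constructs. ORC1, the largest subunit of the origin recognition complex, had 13.8, 12.5 and 15.4 CPM in MX, 14.8, 14.4 and 14.2 in YAP1 and 12.96, 11.9 and 9.19 in YAP1-S127A. The YAP1-S127A libraries lay below those of YAP1, with a log2 difference of -0.36 (adjusted p = 0.332 in edgeR). CDC6 ran from 38.6 to 51.7 CPM, CDT1 from 42.6 to 62.8 and ORC6 from 27.9 to 31.8, with overlapping groups.

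E2F1 and E2F2, transcription factors of the activating E2F class, moved in opposite directions with YAP1-S127A. E2F1 (ENSG00000101412, chromosome 20, 33675683 to 33686404) stood at 31.1, 40.8 and 43.3 CPM in MX, 45.1, 50.9 and 53.9 in YAP1 and 56.4, 62.5 and 59.7 in YAP1-S127A. It was the 1 gene of the 39 in which the 3 groups were ordered MX, YAP1, YAP1-S127A with no overlap. How many of all tested genes had that order was not counted, so it cannot be called particular to E2F1. E2F1 rose by 0.64 on the log2 scale with YAP1-S127A (SE 0.13, adjusted p = 0.00166 in edgeR), against 0.38 with YAP1 (adjusted p = 0.0866) and 0.25 between the constructs (95% interval -0.02 to 0.52). Of 20 alternatives, 1 ended this call, the scaling by total counts (0.37, adjusted p = 0.0716). E2F2 (ENSG00000007968, chromosome 1, 23506430 to 23531220) stood at 4.24, 3.45 and 3.46 CPM in MX, 2.38, 3.00 and 4.13 in YAP1 and 2.82, 1.97 and 1.84 in YAP1-S127A. The YAP1-S127A libraries lay below MX and overlapped YAP1. E2F2 fell by 0.77 on the log2 scale with YAP1-S127A (SE 0.27, adjusted p = 0.0497), on 31 to 119 counts a library. That call was lost in 10 of 20 alternatives, among them those without MX replicate 1, 2 or 3 (adjusted p = 0.122, 0.0616 and 0.0752), YAP1 replicate 2 (0.0665), and YAP1-S127A replicate 2 or 3 (0.13 and 0.2).

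E2F8, an atypical E2F that represses E2F targets, had 6.63, 6.17 and 7.51 CPM in MX, 6.89, 6.97 and 7.68 in YAP1 and 5.11, 5.01 and 5.15 in YAP1-S127A. The 3 YAP1-S127A libraries were tightly grouped below all 6 others. The log2 differences, -0.42 from MX and -0.50 from YAP1, were not called (adjusted p = 0.103 and 0.189 in edgeR). CCNE1, the cyclin that drives CDK2 at S phase entry, had 11.2, 12.9 and 12.7 CPM in MX, 12.7, 10.9 and 12.2 in YAP1 and 11.1, 9.96 and 8.30 in YAP1-S127A. Its YAP1-S127A libraries lay below MX, with a log2 difference of -0.33 that was not called (adjusted p = 0.145). Its paralogue CCNE2 had 3.39, 2.66 and 2.37 CPM in MX, 3.47, 3.12 and 4.08 in YAP1 and 3.20, 2.22 and 2.63 in YAP1-S127A, with overlapping groups.

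Among the genes of deoxynucleotide supply, edgeR called 0 of 3, with 2 at an unadjusted p under 0.05 with YAP1 and 1 with YAP1-S127A. RRM2, the small subunit of ribonucleotide reductase whose level limits the enzyme in S phase, had 40.9, 37.1 and 43.2 CPM in MX, 45.5, 53.1 and 46.9 in YAP1 and 43.7, 50.8 and 52.1 in YAP1-S127A. All construct libraries lay above MX, by 0.26 and 0.28 on the log2 scale, without passing the test (adjusted p = 0.210 and 0.114 in edgeR). TYMS, which makes thymidylate, had 29.7, 31.7 and 33.1 CPM in MX, 34.9, 38.6 and 39.1 in YAP1 and 37.0, 32.3 and 32.4 in YAP1-S127A. Its YAP1 libraries lay above MX, with a log2 difference of 0.25 (adjusted p = 0.221). RRM1, the large subunit, ran from 85.6 to 118 CPM.

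Of the genes that rebuild chromatin behind the fork, edgeR called 0 of 4 in the joint fit, with 1 at an unadjusted p under 0.05, between the constructs. UHRF1, which brings the maintenance methyltransferase to newly copied DNA, had 62.9, 57.8 and 72.5 CPM in MX, 72.5, 71.0 and 72.9 in YAP1 and 55.4, 54.9 and 58.5 in YAP1-S127A. Its YAP1-S127A libraries lay below all YAP1 libraries, with a log2 difference of -0.36 (SE 0.11, adjusted p = 0.126 in edgeR), and in a fit of these 2 groups alone the adjusted p was 0.0384. DNMT1, that methyltransferase, ran from 81.8 to 115 CPM, and CHAF1A and CHAF1B, subunits of the histone chaperone CAF-1, ran from 19.4 to 24.9 and from 16.3 to 22.3.

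The sizes of the differences were small in all 3 comparisons, as were those of most tested genes. In YAP1 against MX, 39 of 39 log2 differences were under 1.5-fold (all tested genes 87.7%). Their median was 0.06 (all tested genes -0.0036), and 30 were positive (76.9%, against 49.5% of all tested genes). In YAP1-S127A against MX, 36 were under 1.5-fold (92.3%, all tested genes 81.2%). The median there was -0.05 (all tested genes -0.0045), and 26 were negative (66.7%, against 50.5% of all tested genes). Between YAP1-S127A and YAP1, 39 were under 1.5-fold (all tested genes 90.3%). The median between the constructs was -0.15 (all tested genes 0.0056), and 32 of 39 were negative (82.1%, against 49.1% of all tested genes). Without YAP1-S127A replicate 3 that median was -0.097, and over the other libraries left out in turn it reached -0.20. The groups of that comparison did not overlap in 11 genes that were lower and 2 that were higher in YAP1-S127A, where 9.34% and 10.3% of all tested genes were so. Against MX the groups did not overlap in 6 genes for YAP1 (15.4%, all tested genes 24.1%) and 13 for YAP1-S127A (33.3%, all tested genes 32.6%). The YAP1 group had the highest mean in 25 of the 39 genes. The share of all tested genes with their highest mean in YAP1 was not counted, so this number has no background.

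**Figure D4:**
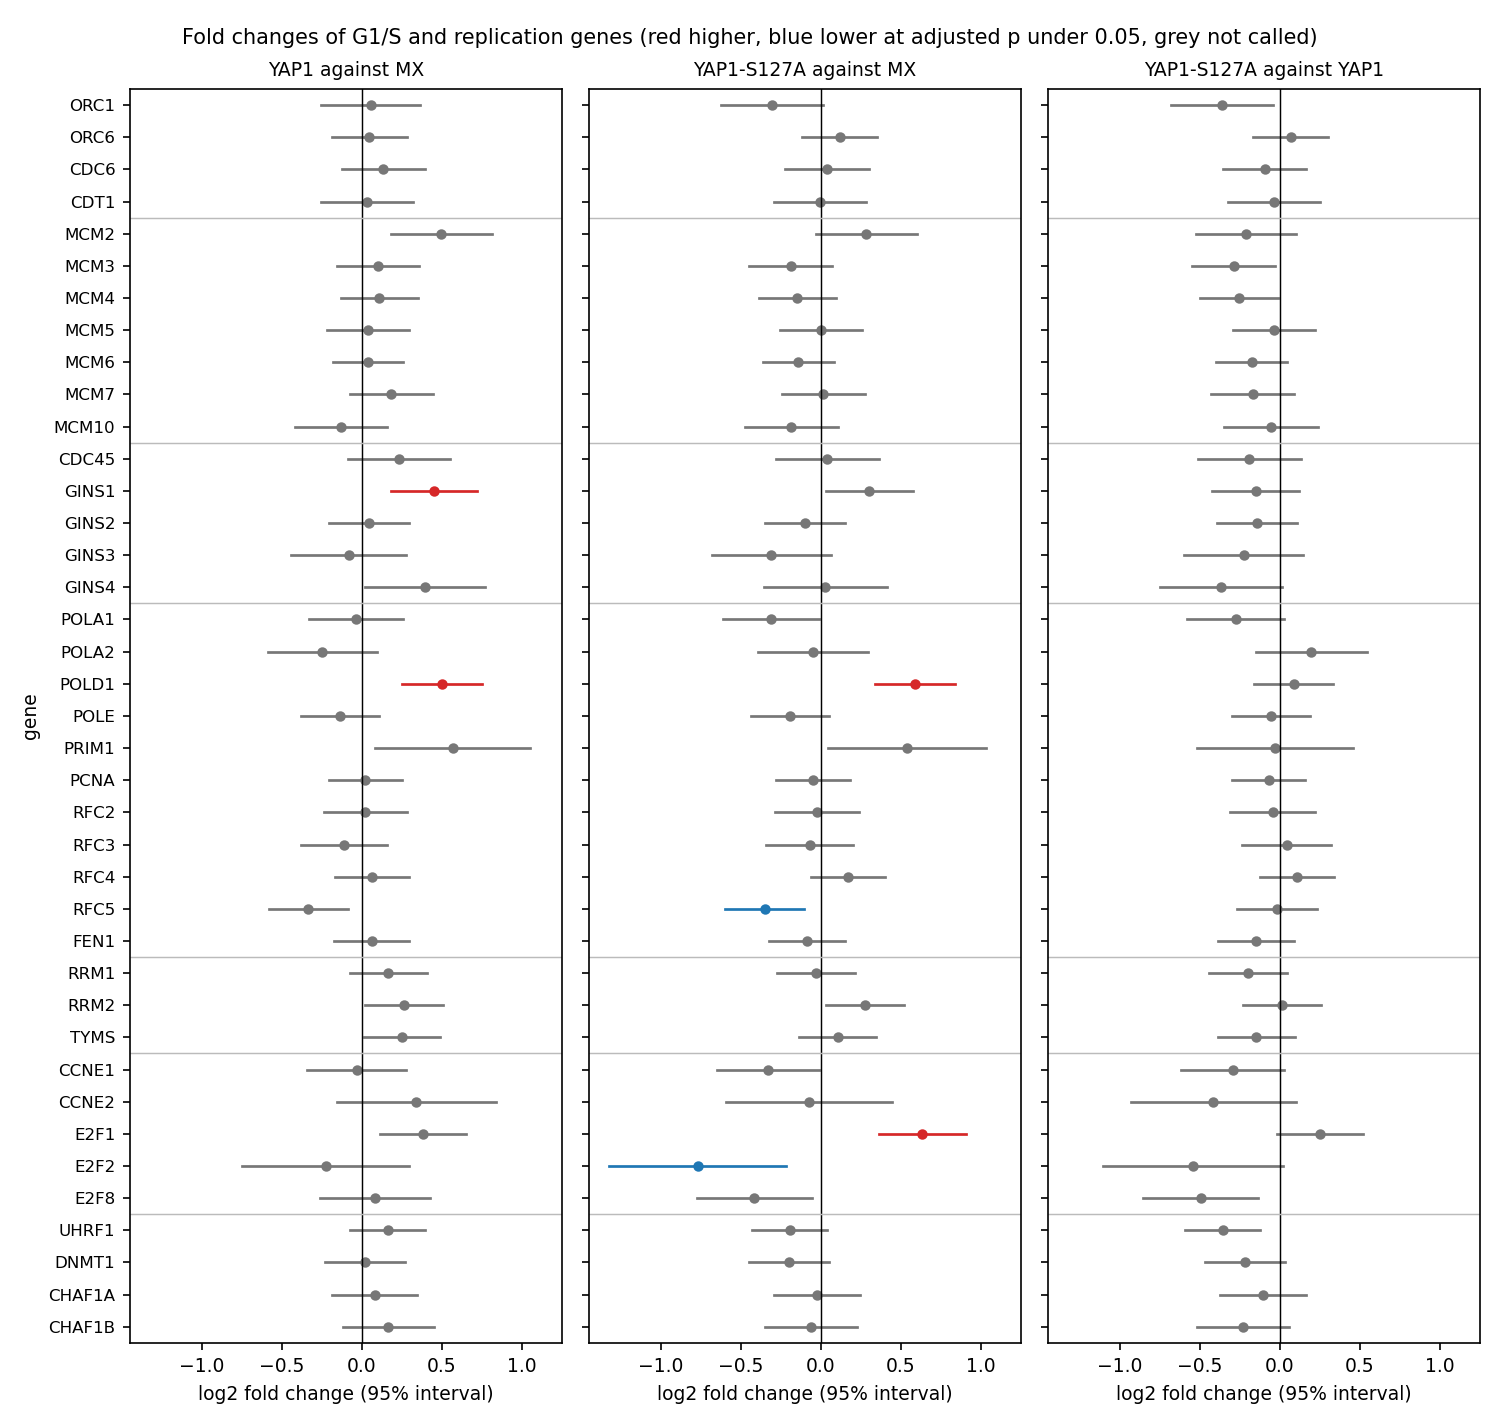
Log2 fold change of each of the 39 genes with its 95% interval, in 3 panels for the 3 comparisons; red is higher and blue lower at an adjusted p under 0.05, grey is not called. The panel of YAP1-S127A against YAP1 holds 0 coloured genes and 32 of 39 points left of 0.

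Scaling by total counts moved these medians and those of all genes. With total counts in place of TMM, the median over the 39 genes was -0.0060 in YAP1 against MX (all tested genes -0.076), -0.32 in YAP1-S127A against MX (all tested genes -0.28) and -0.35 between the constructs (all tested genes -0.20), and 0 genes were called higher and 14 of 39 lower in YAP1-S127A against MX (beside 24.8% of all tested genes). Under that scaling POLD1 and E2F1 stayed above MX, at 0.31 and 0.37, without being called.

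Other genes of replication and the cell cycle were taken from 6 lists outside the 39. The shares of all tested genes called, 6.81% with YAP1 and 18.4% with YAP1-S127A, stand beside their counts. Of 35 other replication genes, 0 were called with YAP1 (2 at an unadjusted p under 0.05), and 2 rose with YAP1-S127A (5.71%): CHTF18, part of an alternative clamp loader, by 0.52 on the log2 scale (adjusted p = 0.0091 in edgeR), and GMNN, the inhibitor of CDT1, by 0.43 (0.0166). Of 16 other genes of nucleotide supply, 0 were called with YAP1 (1 at an unadjusted p under 0.05) and 3 rose with YAP1-S127A (18.8%): DCTPP1, which clears dCTP, by 0.48 (adjusted p = 0.0254), DTYMK, the thymidylate kinase, by 0.47 (0.0400) and DCK, the deoxycytidine kinase, by 0.35 (0.0481). Of 27 tested G1/S regulators, 1 was called with YAP1 (3.70%) and 3 with YAP1-S127A (11.1%). At an unadjusted p under 0.05, 7 were higher and 2 lower with YAP1 (33.3%, all tested genes 19.8%). With YAP1-S127A, 10 were higher and 2 lower at that threshold (44.4%, all tested genes 31.3%). MYC rose by 0.47 with YAP1 (adjusted p = 0.0450), while with YAP1-S127A the D-type cyclin CCND3 rose by 0.52 (0.0096), the kinase inhibitor CDKN1C by 0.51 (0.0150) and FBXO5, an inhibitor of the anaphase-promoting complex, by 0.48 (0.0205). Of 11 further chromatin genes, 1 fell with YAP1-S127A (9.09%), the histone chaperone NASP, by 0.56 (adjusted p = 0.0013), and 0 were called with YAP1 (0 at an unadjusted p under 0.05). Of 18 tested S-phase repair and checkpoint genes, edgeR called 0 in any comparison, and the unadjusted p was under 0.05 for 0 with YAP1, 1 with YAP1-S127A and 2 between the constructs. Of 20 G2/M and mitosis genes, 0 were called with YAP1 (0 at an unadjusted p under 0.05), while with YAP1-S127A 2 were called (10.0%): BIRC5 rose by 0.42 and the proliferation marker MKI67 fell by 0.40 (adjusted p = 0.0314 and 0.0480). Between the constructs, edgeR called 0 genes of the 6 lists. In the order given here, 2, 0, 4, 1, 2 and 0 of their genes had an unadjusted p under 0.05. In the same order, 54.3, 62.5, 48.1, 72.7, 83.3 and 50% of their differences between the constructs were negative, beside 82.1% for the 39. In YAP1 against MX, 74.3, 81.25, 74.1, 45.5, 61.1 and 40% were positive, beside 76.9% for the 39. The direction of the 39 was thus shared by some of these lists and not by others. Most of the calls in the 6 lists were lost in at least 1 fit without 1 of the libraries. Such a fit has fewer libraries to estimate the spread, and why calls were lost was not tested. With 1 library left out, the lost calls had adjusted p from 0.0518 to 0.207. The libraries were MX replicate 1 for MYC, DTYMK, DCTPP1, BIRC5 and MKI67, MX replicate 2 for MYC and DCK, and MX replicate 3 for GMNN, DTYMK, DCK, FBXO5 and MKI67. Among YAP1 libraries they were replicate 1 for MYC, replicate 2 for MYC, DTYMK, DCK, BIRC5 and MKI67, and replicate 3 for MYC, DCK and MKI67. Among YAP1-S127A libraries they were replicate 1 for MYC, DCTPP1, DCK, CDKN1C, FBXO5 and MKI67, replicate 2 for DTYMK, DCTPP1, DCK, CCND3, BIRC5 and MKI67, and replicate 3 for GMNN, CHTF18, DTYMK, DCTPP1, DCK, FBXO5, BIRC5 and MKI67. NASP kept its call without any 1 library. When the mitochondrial share was a covariate, CCND3 and BIRC5 were still called, and NASP, at -0.41, was not (adjusted p = 0.142). Scaling by total counts ended every rise among these genes and left NASP and MKI67 called.

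MYC stood at 138, 130 and 168 CPM in MX, 194, 204 and 207 in YAP1 and 167, 119 and 171 in YAP1-S127A. The YAP1 libraries lay above all others, and the YAP1-S127A libraries overlapped MX, with a log2 difference between the constructs of -0.41 (adjusted p = 0.178 in edgeR). Under total-count scaling that difference was -0.62 and was called (adjusted p = 0.0107), where the median of all tested genes was -0.20. The MYC call with YAP1 was lost in 10 of 20 alternatives. CCND1, the D-type cyclin, had 202, 187 and 204 CPM in MX, 229.9, 205 and 225 in YAP1 and 239.9, 256 and 214 in YAP1-S127A, with log2 differences from MX of 0.15 and 0.26 that were not called (adjusted p = 0.507 and 0.123). Its construct libraries all lay above MX, by little for YAP1 replicate 2. CDKN1A, the inhibitor p21, had 133, 145 and 184 CPM in MX, 193, 188 and 202 in YAP1 and 197, 189.9 and 175 in YAP1-S127A. For CDKN1A, MX replicate 3 lay above 1 YAP1-S127A library and below every YAP1 library. Without MX replicate 3 the differences of 0.48 and 0.42 were called (adjusted p = 0.0389 and 0.0371), against 0.33 and 0.28 with it.

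The median coefficient of variation of the 39 genes within a group was 10.7% in MX, 6.84% in YAP1 and 8.90% in YAP1-S127A. Over all tested genes it was 14.7, 10.6 and 12.1%. The genes were not matched for level, on which this coefficient depends, so a lower variation cannot be credited to the 39. Outside all lists, the genes whose log2 CPM tracked the mean of the 39 most closely over 9 libraries were RIPK1 (r = 0.959), EHMT2 (0.957), RNF4 (0.946), VPS26B (0.937) and SKI (0.935), given as a description of these libraries, which share their scaling.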

How the data were processed

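The deposited values are read counts per gene, whole numbers with no normalization visible, with a gene length in bases deposited beside them (another unit, used only for CPM per kb). HISAT2, Cufflinks, Salmon 1.9.0 and the mouse build GRCm39 are named, per the submitters' processing notes; which program counted the reads, and with which strand setting, is not stated there, and the table's identifiers are human. Reads of overlapping genes may therefore be shared. Genes were filtered with filterByExpr, scaled by TMM and fitted over all 9 libraries with edgeR 4.0.16 (R 4.3.3). The model had group alone, robust quasi-likelihood tests and Benjamini-Hochberg adjustment over 15492 genes; a call is an adjusted p under 0.05. SE is the absolute log2 fold change over the root of F. Log2 CPM used a prior count of 2. The steps were tested on simulated data. The pass mark there was set on changes larger than any among the 39 genes, so it does not measure power for small differences. The 39 genes, the role groups and the 6 further lists were chosen with earlier results of these data known. Values per library are given for genes called or with an unadjusted p under 0.05 in any comparison and for the 2 highest and 2 lowest per kb; up to 3 called genes are named per further list, and MYC, CCND1, CDKN1A and YAP1 in any case. Alternatives were RLE or total-count scaling, mitochondrial genes left out, other filters, DESeq2 1.42.0, limma-voom (3.58.1), only the groups compared, a replicate block, the mitochondrial share as covariate, and each library left out. YAP1-S127A reduced to replicate 2, its library with under 20% mitochondrial counts, was added after seeing the data.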

Additional observations from a re-analysis of the deposited data

How the results depend on the processing

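By total counts, the median over the 39 genes was -0.0060 in YAP1 against MX, -0.32 in YAP1-S127A against MX and -0.35 between the constructs, where the medians of all tested genes were -0.076, -0.28 and -0.20. That scaling called 0 genes higher with YAP1, 0 higher and 14 lower with YAP1-S127A, and 1 lower between the constructs (UHRF1). The shares of all tested genes were 2.01%, 3.94%, 24.8% and 3.25% in that order. With the shift in the medians of all genes, that scaling turned the difference between the constructs for POLD1 to -0.12 and for CCND1 to -0.10. It turned the differences from MX in YAP1-S127A to -0.013 for CCND1 and -0.23 for MYC. With YAP1-S127A, 1 gene was lower under RLE scaling, without a filter and with limma-voom (all tested genes 8.73, 4.66 and 8.59%). With only the groups compared, 1 gene was higher with YAP1, 0 were lower with YAP1-S127A and 1 was lower between the constructs. The shares of all tested genes were 2.80, 7.76 and 1.36% in that order. With the mitochondrial share as covariate, 1 was higher with YAP1 (all tested genes 3.18%). With YAP1-S127A, 1 was higher and 1 lower in that fit (all tested genes 4.93 and 4.14%), and MYC was at -0.21 in YAP1-S127A against MX. With YAP1-S127A reduced to replicate 2, chosen after seeing the data and with its spread taken from the other groups, MYC was at -0.29 in YAP1-S127A against MX.

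Without 1 library in turn, 0 to 3 genes were higher with YAP1 (0 without YAP1 replicate 3), and 2 to 3 higher and 0 to 2 lower with YAP1-S127A. The medians ran from 0.054 to 0.13 with YAP1 from -0.11 to -0.0046 with YAP1-S127A, and from -0.20 to -0.097 between the constructs (-0.097 without YAP1-S127A replicate 3). RFC5 between the constructs ran from -0.056 to 0.038, and MYC in YAP1-S127A against MX from -0.018 to 0.21. With the replicate block, 4 genes were higher with YAP1 (MCM2, E2F1, POLD1 and GINS1). The share of all tested genes higher with YAP1 also rose, from 3.23 to 4.65%. MYC was called between the constructs in the block fit (-0.42, adjusted p = 0.0452). The deviations of same-numbered libraries correlated at -0.178 to 0.204, and those of differently numbered libraries at -0.254 to 0.207. The numbers were therefore not taken to pair the libraries. Outside total counts, the cause of these changes was not tested.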
